A study of Homo sapiens with 4 samples.

Results

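The Eph receptors, the ephrins, the Slit and Robo proteins and the netrins with their receptors are the classical guidance molecules other than semaphorins, and 39 of their genes were examined here. They were 14 Eph receptor genes, 7 ephrin genes, 7 Slit and Robo genes and 11 genes of netrins and netrin receptors. A deposited tile was taken as a member when it overlapped the span of one of these genes, extended by 5 kb on each side, in the GENCODE annotation of GRCh37 (hg19). All 39 genes were found in the annotation, and 269 of the 72455 distinct tiles in the authors' deposited tables fell in them, 73 in Eph receptors, 25 in ephrins, 73 in Slit and Robo genes and 98 in netrins and receptors. No tile fell in 2 of these genes.

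The study asked how DNA methylation differs when the antigen receptor LY75 is removed from SKOV3, an established line of human ovarian cancer cells that look mesenchymal. Reduced representation bisulfite sequencing (RRBS), which reads the methylation of CpGs near the ends of short MspI fragments, was made on 4 libraries, 1 from each of 4 SKOV3 clones, without replicates. A mesenchymal (M) phenotype was shown by ShC-S, given a control shRNA, and by Ly75-OV-S, made from LY75 knockdown cells that express a shRNA-resistant LY75 cDNA and so carry the LY75 shRNA as well. An epithelial (E) phenotype was shown by ShLy75-S, with a shRNA against LY75, and by Ly75-KO-S, with LY75 suppressed by means of CRISPR. Each clone is a line of its own, and what separates clones in general cannot be told apart from the loss of LY75. The authors deposited a table for ShC-S vs. ShLy75-S (the shRNA comparison), a table for Ly75-OV-S vs. Ly75-KO-S (the knockout comparison) and a table for the mix of both pairs. The 2 single comparisons share no library, whereas the mix shares its libraries with both. Their clones are not independent, however, since the study made Ly75-OV-S in the LY75 knockdown cells, the E side of the shRNA comparison.

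Each table lists tiles of 1000 bp with a difference in percent methylation of 25 percentage points or more and a q-value (a p-value adjusted for multiple tests) under 0.01. A listed tile is called a DMR here. Positive differences are given as hypermethylation and negative differences as hypomethylation in the E clone. This sign, E minus M, is a reading that was not tested for the shRNA comparison and the mix. For the knockout comparison this sign rests on the mix, whose differences were fitted by 0.534 times those of the shRNA comparison plus 0.435 times those of the knockout comparison over the 4250 tiles present in all tables. The deposited name of that table puts the knockout first, and read in that order all its signs would be reversed. That reading would turn the fitted weight of the knockout comparison in the mix negative. Neither the level in a library nor the number of reads is in the tables. The depth is therefore unknown, and no replicate error exists. A difference does bound the levels: 100 points means full methylation in one library and none in the other. The q-values compare libraries, not conditions.

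Eph receptors are tyrosine kinases of the cell surface that bind ephrins on neighbouring cells, and signals pass into both cells. Ephrins of the A class are tied to the membrane by a lipid anchor and those of the B class span it. Slit proteins are secreted and act mainly as repellents through Robo receptors. Netrins are secreted relatives of laminins that attract through DCC and repel through the UNC5 receptors, while the netrin-G proteins are anchored to the membrane. Outside the nervous system these molecules take part in cell adhesion, in the sorting of epithelial cells and in vessel growth. Dense methylation of a CpG-rich promoter usually goes with a silent gene, while methylation within a gene body has no such fixed reading. RNA was not analysed here.

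The sequences of 9 windows of 200 bp show what the differences below were measured on. Each window lies in a tile described later and is given on the plus strand of GRCh37, with every CG in capitals. CG and CCGG, the site that MspI cuts, each read the same on both strands, and a CCGG holds a CG. The first lines are from tiles with large differences within 2 kb of a transcription start site (TSS), where the shRNA comparison gave -97.9 points for EFNA4, -73.3 points for EPHA5, -100 points for EPHB4, 100 points for SLIT1 and -75.0 points for UNC5A. The windows of EPHB4 and UNC5A were intronic, that of EPHA5 held 171 coding bases, and those of EFNA4 and SLIT1 lay upstream of the gene.
EFNA4, chr1:155035263-155035462: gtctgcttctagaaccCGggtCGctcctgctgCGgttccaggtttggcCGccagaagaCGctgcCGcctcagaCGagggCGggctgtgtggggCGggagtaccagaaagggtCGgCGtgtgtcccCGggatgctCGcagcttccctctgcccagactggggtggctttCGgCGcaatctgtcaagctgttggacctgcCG
EPHA5, chr4:66535251-66535450: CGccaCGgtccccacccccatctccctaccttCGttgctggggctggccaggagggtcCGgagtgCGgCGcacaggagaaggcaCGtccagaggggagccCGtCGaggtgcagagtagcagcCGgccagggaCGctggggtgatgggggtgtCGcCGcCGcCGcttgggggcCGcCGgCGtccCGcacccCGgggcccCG
EPHB4, chr7:100422794-100422993: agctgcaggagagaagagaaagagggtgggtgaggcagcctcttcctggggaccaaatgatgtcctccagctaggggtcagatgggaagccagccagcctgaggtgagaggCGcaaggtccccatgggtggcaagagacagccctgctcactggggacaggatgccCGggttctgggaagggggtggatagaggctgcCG
SLIT1, chr10:98947233-98947432: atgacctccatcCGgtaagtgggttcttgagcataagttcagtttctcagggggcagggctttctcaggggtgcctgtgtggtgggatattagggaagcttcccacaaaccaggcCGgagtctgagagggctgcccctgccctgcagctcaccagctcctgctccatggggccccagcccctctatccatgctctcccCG
UNC5A, chr5:176238044-176238243: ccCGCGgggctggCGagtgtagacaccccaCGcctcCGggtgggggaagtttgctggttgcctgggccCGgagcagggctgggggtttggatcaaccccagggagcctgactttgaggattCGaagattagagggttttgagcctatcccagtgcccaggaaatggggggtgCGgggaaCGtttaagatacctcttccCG
The remaining lines are from tiles that had the same direction in both single comparisons, upstream of ROBO3 and in introns of EFNA5, NTN1 and NTNG2.
ROBO3, chr11:124733169-124733368: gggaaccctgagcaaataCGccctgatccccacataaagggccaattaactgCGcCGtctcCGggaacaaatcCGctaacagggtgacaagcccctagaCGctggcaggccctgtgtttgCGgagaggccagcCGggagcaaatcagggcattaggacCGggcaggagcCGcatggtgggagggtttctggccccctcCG
EFNA5, chr5:106878710-106878909: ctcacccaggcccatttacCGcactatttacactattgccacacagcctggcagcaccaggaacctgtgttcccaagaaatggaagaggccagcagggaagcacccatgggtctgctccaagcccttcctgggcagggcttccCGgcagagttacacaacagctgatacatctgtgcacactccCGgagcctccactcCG
NTN1, chr17:9073568-9073767: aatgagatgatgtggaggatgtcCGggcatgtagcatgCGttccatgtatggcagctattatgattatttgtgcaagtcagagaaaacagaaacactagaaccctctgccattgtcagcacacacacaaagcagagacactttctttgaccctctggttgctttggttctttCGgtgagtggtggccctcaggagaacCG
NTNG2, chr9:135051001-135051200: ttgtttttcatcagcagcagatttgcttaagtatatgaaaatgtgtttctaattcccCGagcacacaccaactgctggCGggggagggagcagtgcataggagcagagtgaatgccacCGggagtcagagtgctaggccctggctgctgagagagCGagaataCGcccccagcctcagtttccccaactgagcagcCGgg
The windows differ widely in CpG number. That of EPHA5 held 21 CG and that of EFNA4 16, while those of EPHB4 and SLIT1 held 3 each. Of all 14292991 windows of this length in the reference, 71.4% held a CG and 12.2% a CCGG.

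All 39 guidance genes had a DMR in at least 1 table, and 25 had one in every table. For these counts across tables, no share of all protein-coding genes is given here. In the shRNA comparison 35 of 39 genes (89.7%) had a DMR, against 60.3% of 20136 protein-coding genes. For the knockout comparison it was 33 genes (84.6%), against 46.8%, and for the mix 27 genes (69.2%), against 38.3%. The guidance genes are long, with a median span of 133 kb against 27.2 kb for protein-coding genes, and a longer gene offers more tiles. Counted per tile instead, MspI fragments of 40 to 220 bp could reach 1174 tiles of the guidance genes with reads of 50 bp. Of these tiles 15.2% were listed in the shRNA comparison, 8.18% in the knockout comparison and 5.96% in the mix, against 12.4%, 6.65% and 5.16% of all reachable tiles. The shares per tile were thus closer to those of the genome than the shares per gene. Reach was computed from an in silico digest of the reference, not from the reads. It took in 92.7% of the DMRs of guidance genes in the shRNA comparison, and 97.9% with fragments of up to 400 bp. A listed tile without a CpG within reach was still measured.

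The genes without a DMR were EPHA3, EPHA7, ROBO4 and NEO1 in the shRNA comparison. EFNA1, EFNA3, EFNA4, EFNB2, SLIT2 and NTNG1 had none in the knockout comparison. The mix listed none for EPHA1, EPHA3, EPHA7, EPHA10, EPHB6, EFNA1, EFNA3, EFNA4, EFNB2, EFNB3, SLIT2 and NEO1. A gene without a DMR has no tile past the authors' thresholds, which does not show that its methylation was equal.

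The tables held 192 DMRs of guidance genes in the shRNA comparison, 104 in the knockout comparison and 76 in the mix. Hypermethylated in the E clone were 103 of the 192 (53.6%; 95% Wilson interval 46.6 to 60.6%), where the share over all listed tiles was 64.7%. Of the 104 DMRs in the knockout comparison, 54 were hypermethylated (51.9%; 42.4 to 61.3%), against 54.7% of all listed tiles, and in the mix 47 of 76 (61.8%; 50.6 to 71.9%), against 65.0%. The intervals cover counting error alone, and neighbouring tiles are not independent. Among the tiles of protein-coding genes, the shares were 61.9%, 55.3% and 62.2% in the same order. The median absolute difference of the guidance genes was 50.7, 46.1 and 40.4 points, against 50.0, 41.9 and 36.9 points over all listed tiles. Differences of 50 points or more made up 53.6%, 42.3% and 28.9% of their DMRs, against a background of 53.2%, 37.5% and 21.6%. Both hyper- and hypomethylated tiles were listed in 21 of the 35 genes with DMRs in the shRNA comparison and in 15 of the 33 in the knockout comparison. A gene with more DMRs can more easily hold both directions, and no share of all protein-coding genes is given for these counts.

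**Figure D1:**
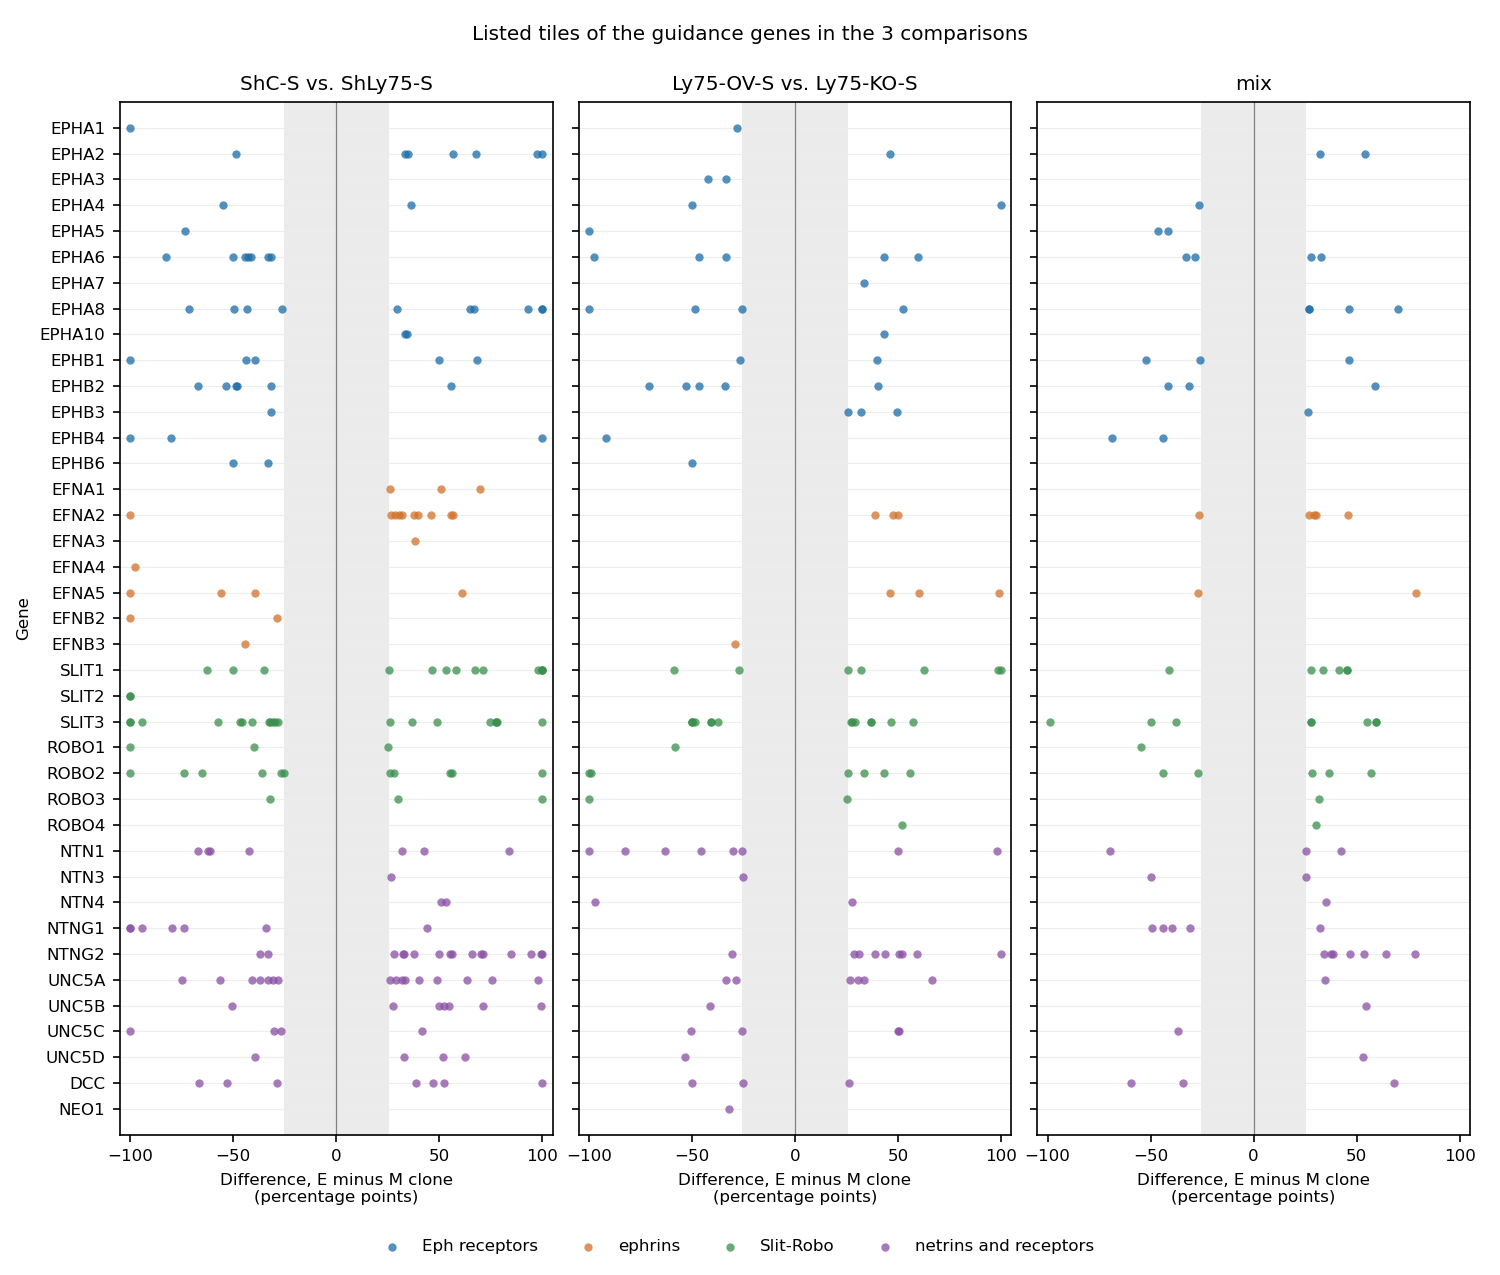
Each point is 1 DMR of the guidance gene named on the vertical axis, placed by its difference in percentage points (E minus M clone), in the shRNA comparison (left), the knockout comparison (middle) and the mix (right); colours give the gene group, and the grey band covers the differences under 25 points that the tables leave out. NTNG2 has 14 of 16 points to the right of 0 in the left panel, NTNG1 has 6 of 7 to the left, and the mix has no point at 100 or -100.

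Complete differences of 100 points were listed for 27 DMRs of guidance genes in the shRNA comparison, 12 of them hypermethylated and 15 hypomethylated. These were 14.1% of their DMRs, against 13.1% of all listed tiles, where 4422 of 6697 such tiles were hypermethylated. Another 8 (7.69%, against 9.37%) stood in the knockout comparison, 3 of them hypermethylated, against 1453 of 2651. The mix had none, and 102 of its 20986 tiles had such a difference. These tiles held few CpGs: the 27 of the shRNA comparison had medians of 13 CpGs and of 2 CpGs within reach of a read, while the other DMRs of these genes in the shRNA comparison had medians of 19 and 5. The same held over all listed tiles, with medians of 16 and 3 against 20 and 5. How far read number set these values was not tested.

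By gene group, the hypermethylated share was lowest in the Eph receptors in every table, with the knockout signs as read here. Of their DMRs, 19 of 47 (40.4%; 27.6 to 54.7%) were hypermethylated in the shRNA comparison, 12 of 30 (interval 24.6 to 57.7%) in the knockout comparison and 11 of 22 in the mix. The ephrins, their ligands, had 14 of 22 hypermethylated (63.6%; 43.0 to 80.3%) in the shRNA comparison and 6 of 7 in the knockout comparison. Slit and Robo genes had 26 of 52 and 18 of 31, and netrins and receptors 44 of 71 and 18 of 36, in the same order. With the knockout signs reversed, the Eph receptors would instead have the highest share there, with 18 of 30, against 1 of 7 for ephrins, 13 of 31 for Slit and Robo genes and 18 of 36 for netrins and receptors. This reversed reading would turn the fitted weight of the knockout comparison in the mix negative. The intervals of the groups overlap each other in each table, and no test between the groups was made.

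**Figure D2:**
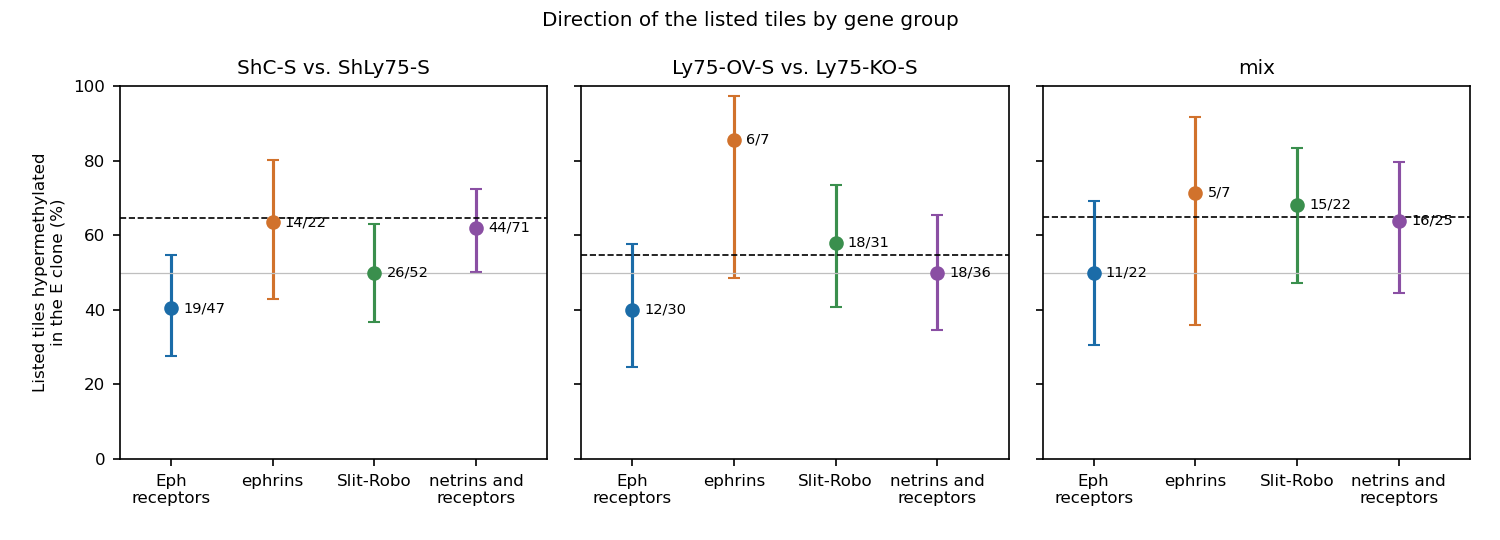
The share of DMRs hypermethylated in the E clone (vertical axis, percent) is plotted for each gene group and comparison; bars are 95% Wilson intervals, the fractions give hypermethylated tiles over all DMRs of the group, and the dashed line is the share over all listed tiles. The Eph receptors lie lowest in the shRNA comparison, with 40.4% against the line at 64.7%, and in the knockout comparison, with 12 of 30 tiles against the line at 54.7%. With the knockout signs reversed, which would turn their fitted weight in the mix negative, the Eph receptors would have 18 of 30 there and lie highest.

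A DMR within 2 kb of a TSS was present for 24 of the 39 genes in at least 1 table, a count without a share of all protein-coding genes beside it. By comparison these were 20 genes (51.3%) in the shRNA comparison, 10 (25.6%) in the knockout comparison and 9 (23.1%) in the mix. The background was 30.2%, 14.2% and 15.2% of protein-coding genes. Any TSS of a basic transcript counted, so a gene with more starts had more chances. With the outer end of the gene as the only TSS, the counts were 18, 7 and 8 genes, for which no background is given. Of the 26 DMRs near a TSS in the shRNA comparison 12 were hypermethylated (46.2%), against 55.6% of all listed tiles near a TSS of a protein-coding gene. The counts were 7 of 12 in the knockout comparison, where the background was 53.3%, and 5 of 10 in the mix, where it was 55.3%. In tiles with 50 or more CpGs, a split made after the values were seen, the shRNA comparison had 15 DMRs near a TSS of guidance genes, of which 5 were hypermethylated and 10 hypomethylated, against a background of 54.9% hypermethylated.

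**Figure D3:**
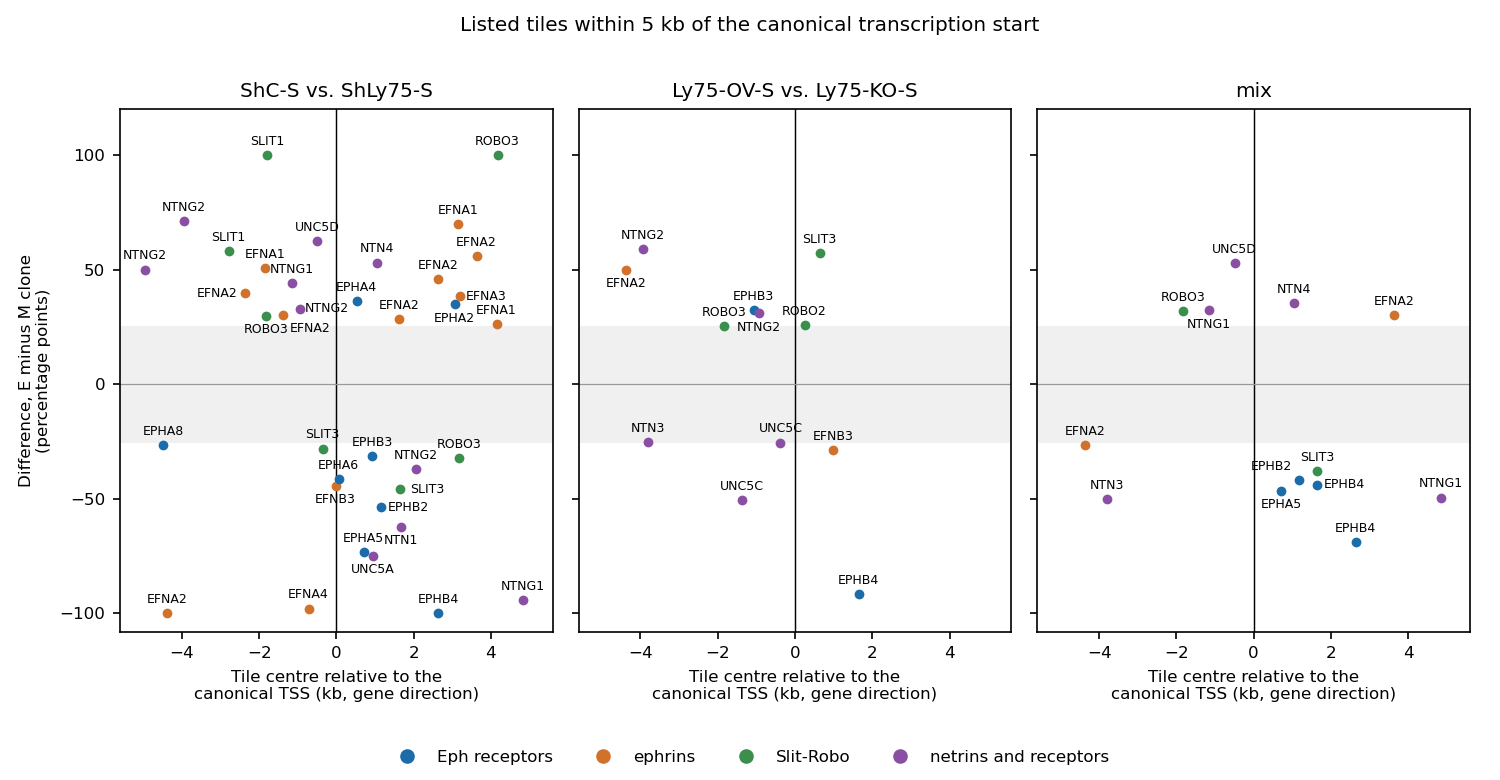
DMRs whose tile centre lies within 5 kb of the start of the canonical transcript, placed by distance in kb along the direction of the gene (horizontal axis) and by difference in percentage points, E minus M clone (vertical axis), with 1 panel per comparison; colours give the gene group. In the shRNA comparison EFNA4 at -97.9 points and EPHB4 at -100 points lie low, SLIT1 and ROBO3 lie at 100 points, and the knockout panel holds fewer tiles.

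Among the Eph receptors, 7 DMRs lay near a TSS in the shRNA comparison, and 6 of them were hypomethylated in ShLy75-S. The largest was in EPHB4, a receptor of the B class that binds ephrin-B2 and is known from vessel development. On the minus strand of chromosome 7, from 100400187 to 100425145, EPHB4 had -100 points in an intronic tile 1737 bp from a TSS (chr7:100422001-100423000; q = 6.08e-22). The mix gave -68.9 points there. The tile next to it, 737 bp from a TSS, was listed at -91.6 points in the knockout comparison and at -43.9 points in the mix. Intronic sequence close to the start of EPHB4 was thus hypomethylated in both E clones, but in neighbouring and not in identical tiles. Only 2 and 1 CpGs of these tiles lay within reach of a read.

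EPHA5, a receptor of the A class that is mostly expressed in nerve tissue, had -73.3 points in a tile over a TSS and a coding exon (chr4:66535001-66536000, 58 CpGs; q = 5.47e-217). The tile does not hold the canonical TSS. In the mix this tile had -46.4 points. Its only DMR in the knockout comparison, at -100 points, lay in an intron 141653 bp from a TSS and held 3 CpGs within reach of a read. EPHB2, a receptor of ephrin-B ligands that positions cells in the gut epithelium, had -53.7 points in the intronic tile 538 bp from a TSS (chr1:23038001-23039000, 63 CpGs) and -41.8 points in the mix. EPHB6, which lacks kinase activity, had -50.0 points in a coding exon 487 bp from a TSS of one of its shorter transcripts. Smaller differences at a CpG-rich start were -41.4 points for EPHA6, -31.5 points for EPHB3 and 36.4 points for EPHA4, which is the exception in direction. The knockout comparison listed none of these tiles. At the same start of EPHB3, however, it listed 32.2 points in an upstream tile (chr3:184278001-184279000). Nearby tiles of this start, which were not adjacent, thus had opposite directions in the single comparisons. Near starts of shorter transcripts the knockout comparison listed 43.0 points for EPHA10 and 39.6 points for EPHB1.

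EPHA6 and EPHA8 were the Eph receptors with the most tiles, 12 each. EPHA6 spans 947 kb on chromosome 3, and its 7 DMRs in the shRNA comparison were all hypomethylated, from -82.5 to -31.6 points. The knockout comparison gave it 2 hyper- and 3 hypomethylated DMRs, from -97.5 to 59.8 points, and none of the tiles was the same. EPHA8 is a shorter gene of 40.1 kb on chromosome 1. It had 6 hypermethylated and 4 hypomethylated DMRs in the shRNA comparison, with 2 complete differences, in introns. One of these tiles (chr1:22910001-22911000) was also hypermethylated in Ly75-KO-S, with 52.3 points, and in the mix, with 70 points. A second EPHA8 tile, over coding exons and with 52 CpGs, had 29.6 points in the shRNA comparison and -48.6 points in the knockout comparison.

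The other Eph receptors can be given by their ranges. EPHA2, which is abundant in many carcinomas, had 7 DMRs in the shRNA comparison, of which 6 were hypermethylated, up to 100 points in an intron. The nearest of them to a TSS lay 2564 bp away, with 34.9 points. Its DMR in the knockout comparison had 45.9 points. EPHB1 had DMRs from -100 to 68.3 points in the shRNA comparison, and EPHB2 had 5 of 6 hypomethylated there and 4 of 5 in the knockout comparison. An intronic EPHB2 tile (chr1:23060001-23061000) was hypomethylated in both, with -31.6 and -33.9 points. EPHA1 had -100 and -28.2 points in different exonic tiles of the single comparisons, and the latter tile also overlaps ZYX. EPHA3 had -42.4 and -33.3 points in the knockout comparison alone, and EPHA7 33.3 points. EPHA4 had -55.0 points in a coding exon besides the tile at its start in the shRNA comparison, and -26.6 points there in the mix. In the knockout comparison EPHA4 had 100 points in one intronic tile and -50.0 points in another. EPHA10 had 2 DMRs in the shRNA comparison. They lay in coding exons, with 33.3 and 34.2 points.

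Among the ephrins, EFNA4 had the largest difference close to a TSS. The tile just upstream of EFNA4 on chromosome 1 (155035001 to 155036000, 213 bp from its TSS and with 60 CpGs) had -97.9 points in the shRNA comparison, so that ShC-S was methylated to at least 97.9% there and ShLy75-S to at most 2.14%. It also overlaps the end of ADAM15, a membrane protease gene. No other tile of EFNA4 was listed in any table. EFNA1, a ligand of EPHA2, went the other way: its 3 DMRs in the shRNA comparison were hypermethylated, with 50.8 points 1352 bp upstream of a TSS, 69.7 points and 26.1 points in exons. EFNA3 had 1 DMR, of 38.3 points, in a tile that also belongs to the read-through gene EFNA4-EFNA3. These 3 genes are neighbours on chromosome 1, and the knockout comparison and the mix listed none of their tiles.

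EFNA2 had the most tiles of the ephrins, 11, in a gene of 15.6 kb on chromosome 19. In the shRNA comparison 9 of its 10 DMRs were hypermethylated, from 26.5 to 56.7 points, and they ran from upstream of the gene to beyond its end. The exception was a tile 3872 bp upstream (chr19:1281001-1282000), with -100 points. The 3 EFNA2 DMRs of the knockout comparison were all hypermethylated, with 50.0 points in that same upstream tile, 38.9 points in an exon and 47.7 points downstream of the gene. The downstream tile had 26.5 points in the shRNA comparison and 29.5 points in the mix.

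EFNA5, a ligand of A-class receptors with a span of 294 kb on chromosome 5, had no DMR near a TSS. An intronic tile (chr5:106878001-106879000) was hypermethylated in both E clones, with 61.2 points in the shRNA comparison, 98.9 points in the knockout comparison and 78.7 points in the mix. Another intronic tile, with 3 CpGs, had -100 points in the former and 46.3 points in the latter. The B-class ligands were hypomethylated wherever listed. EFNB3 had -44.2 points in the tile that holds its TSS (77 CpGs) in the shRNA comparison and -28.9 points in the next tile in the knockout comparison. EFNB2, the ligand of EPHB4, had -100 points in an intron and -28.9 points in a coding exon in the shRNA comparison, and none in the others.

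SLIT3, a secreted ligand of Robo receptors, had the most DMRs of any guidance gene, 20 in the shRNA comparison, 14 in the knockout comparison and 8 in the mix. It spans 639 kb on the minus strand of chromosome 5. Around its start, neighbouring tiles went in different directions. The tile over the canonical TSS (chr5:168728001-168729000) had -28.1 points and the tile 786 bp inside the gene -45.9 points in the shRNA comparison. The tile between them, with 89 CpGs, had 57.1 points in the knockout comparison. Of the remaining tiles, 7 were listed in both single comparisons, 5 of them in the same direction. An intronic SLIT3 tile (chr5:168572001-168573000) had -100 points in the shRNA comparison, -37.3 points in the knockout comparison and -50.0 points in the mix. In the in silico digest this tile held no CpG within reach of a read, although it was listed. Hypermethylated in both were the tiles at 168188001, with 48.8 and 36.7 points, and at 168223001, with 77.5 and 46.6 points. The tile after the latter carries the same difference of 77.5 points and the same q-value in the shRNA comparison. Whether these neighbours rest on the same reads was not tested.

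SLIT1 had 100 points in a tile 1285 bp upstream of its TSS in the shRNA comparison (chr10:98947001-98948000). The tile holds 9 CpGs and also belongs to the read-through gene ARHGAP19-SLIT1. The next tile upstream had 58.0 points. Altogether 10 of the 13 SLIT1 DMRs were hypermethylated in the shRNA comparison and 5 of 7 in the knockout comparison. Both SLIT1 tiles that were listed in the 2 single comparisons had opposite directions, with 71.4 and -58.8 points in one and -63.0 and 62.5 points in the other. The former held no CpG within reach of a read in the in silico digest. SLIT2, which is often methylated at its promoter in carcinomas, had no DMR near a TSS. Its 2 DMRs, both intronic and both in the shRNA comparison, had -100 points.

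ROBO3, a receptor of the Robo family known from the crossing of the midline by axons, had the same tile upstream of its TSS in all tables. This tile (chr11:124733001-124734000, 39 CpGs, 1328 bp from a TSS) was hypermethylated in the E clones by 29.8 points in the shRNA comparison (q = 4.61e-19), by 25.3 points in the knockout comparison (q = 1.58e-06) and by 31.9 points in the mix. Farther in, a coding tile had 100 points in the shRNA comparison, and another, more than 5 kb beyond it, had -100 points in the knockout comparison. Both lie within 2 kb of starts of shorter transcripts. Between them and the canonical start, a tile with 63 CpGs had -32.3 points in the shRNA comparison. ROBO2 had 11 DMRs in the shRNA comparison and 6 in the knockout comparison. Its intronic tiles at chr3:77346001-77347000 (55.1, 56.0 and 56.8 points) and at chr3:77427001-77428000 (25.9, 43.0 and 36.7 points) were hypermethylated in all tables. The former held no CpG within reach of a read in the in silico digest. At the canonical ROBO2 start itself, the knockout comparison had 25.8 points. ROBO1 had 3 DMRs, from -100 to 25.2 points, in the shRNA comparison and -58.0 points in the knockout comparison. ROBO4, the Robo receptor of vessels, had 51.8 points in a coding exon in the knockout comparison and 30.4 points in the mix.

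NTN1, the founding netrin, had -62.2 points near its TSS in the shRNA comparison. The tile (chr17:8926001-8927000) covers a coding exon 1174 bp from the TSS and held 123 CpGs, the most of any DMR of these genes. Away from the start NTN1 had DMRs from -67.1 to 84.0 points in the shRNA comparison and from -100 to 97.9 points in the knockout comparison, where 6 of 8 were hypomethylated. One intronic tile (chr17:9073001-9074000) was hypomethylated in all tables, with -42.6, -82.7 and -69.9 points. NTN4, a netrin of basement membranes, had 53.1 points in an intronic tile 87 bp from a TSS (chr12:96183001-96184000, 50 CpGs) and 35.3 points there in the mix. Its DMRs in the knockout comparison were elsewhere, with -97.1 points in a coding exon and 27.8 points in an intron. NTN3 had single DMRs of 26.7 points downstream in the shRNA comparison and of -25.2 points upstream in the knockout comparison.

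The netrin-G genes went in opposite directions in the shRNA comparison. NTNG2, on chromosome 9, had 14 of 16 DMRs hypermethylated, with a median of 55.5 points, and NTNG1, on chromosome 1, had 6 of 7 hypomethylated, with a median of -79.7 points. In the knockout comparison 8 of 9 NTNG2 DMRs were hypermethylated, with a median of 43.5 points, while NTNG1 had none. NTNG2 had 22 tiles, the most among netrins and receptors. Of its tiles, 3 were listed in both single comparisons, all hypermethylated. The tile 445 bp upstream of its TSS (chr9:135036001-135037000, 44 CpGs) had 33.0 and 30.9 points, the tile 3445 bp upstream had 71.3 and 59.0 points, and the intronic tile at chr9:135051001-135052000 had 65.8 and 51.7 points, with 34.1 points in the mix. One NTNG2 tile 1556 bp inside the gene and rich in CpGs (60) had -36.9 points in the shRNA comparison. At NTNG1, the tile over a TSS was the one that was hypermethylated, with 44.2 points, and the gene body tiles ran from -100 to -34.0 points.

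**Figure D4:**
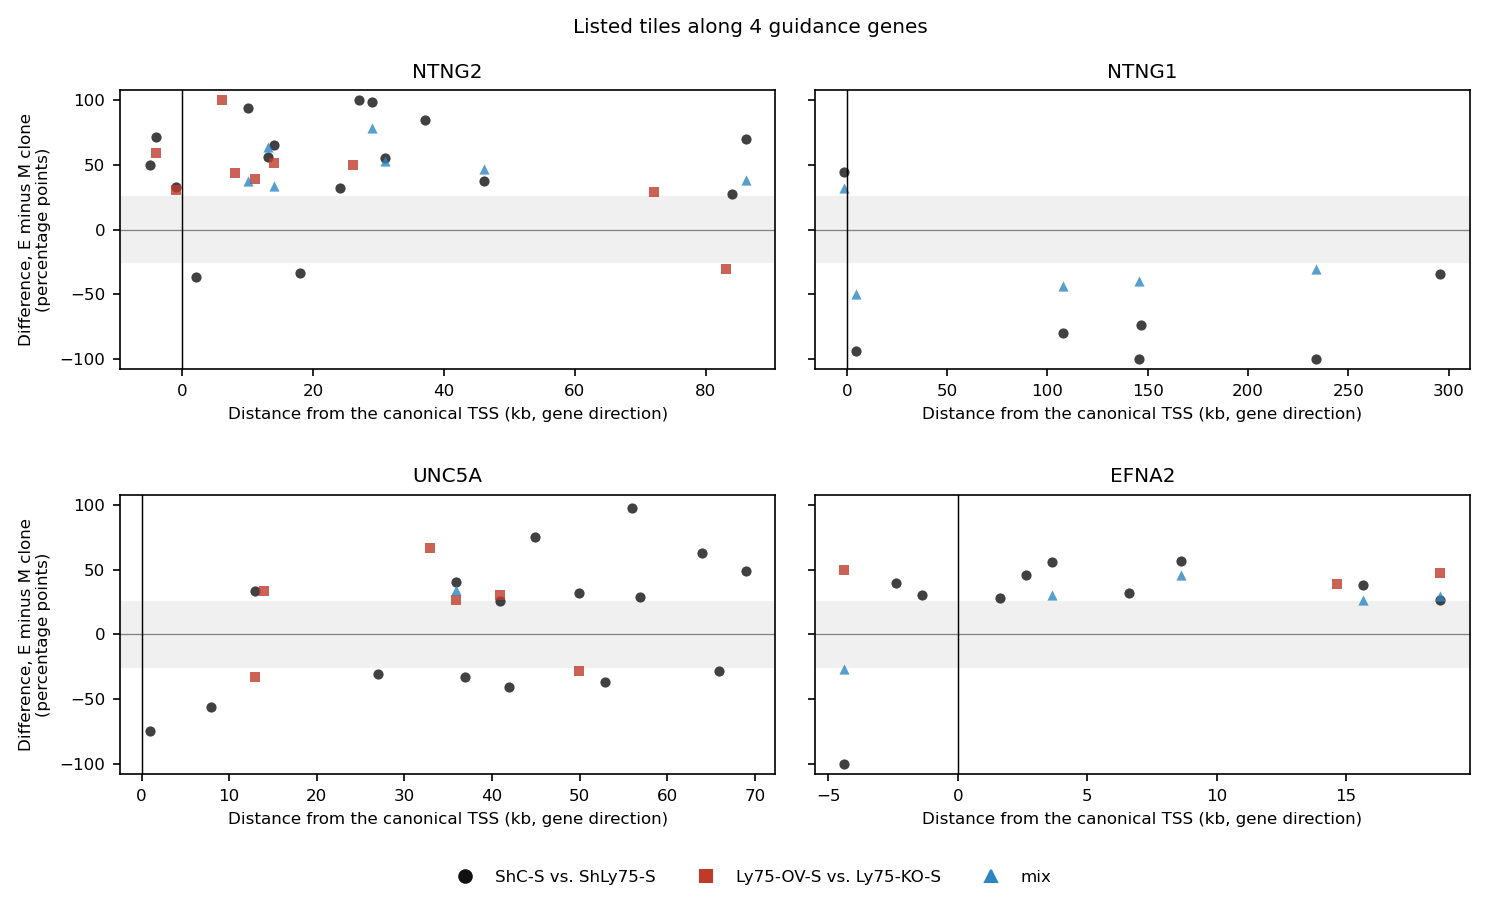
DMRs of NTNG2, NTNG1, UNC5A and EFNA2 by distance from the canonical TSS in kb along the direction of the gene (horizontal axis) and by difference in percentage points, E minus M clone (vertical axis); circles are the shRNA comparison, squares the knockout comparison and triangles the mix, which shares libraries with both. NTNG2 and EFNA2 lie mostly above 0 and the NTNG1 body below 0, while UNC5A has points on both sides all along the gene.

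The UNC5 receptors carry the repellent response to netrins. UNC5A, on chromosome 5, had 18 tiles in 70.4 kb. Its tile 441 bp inside the gene (chr5:176238001-176239000, 31 CpGs) had -75.0 points in the shRNA comparison, and the next DMR, with 44 CpGs, had -56.5 points. Farther in, directions alternated up to 98.0 points, and over the gene 9 of 16 DMRs were hypermethylated. The knockout comparison had 4 of 6. Of the 4 UNC5A tiles in both, 2 were hypermethylated in both (40.2 and 26.6 points, and 25.8 and 30.5 points) and 2 were opposite. UNC5B had 6 of 7 DMRs hypermethylated in the shRNA comparison, up to 99.4 points in an intronic tile with 60 CpGs, 4317 bp from a TSS. Its remaining tile was hypomethylated in both, with -50.8 and -41.1 points. UNC5C had -25.5 points in the tile with its TSS and -50.7 points in the tile upstream, both in the knockout comparison alone. UNC5D, on chromosome 8, had 62.3 points in the tile with its TSS (51 CpGs) in the shRNA comparison and 52.9 points in the mix.

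DCC, the attractive netrin receptor and a gene often lost in colorectal cancer, had no DMR near a TSS. It had 4 of 7 DMRs hypermethylated in the shRNA comparison and 1 of 3 in the knockout comparison. One intronic tile with 4 CpGs (chr18:50932001-50933000) was hypermethylated in all tables, with 100, 26.4 and 68.2 points. NEO1, a relative of DCC, had -32.0 points in an intron in the knockout comparison and no other DMR.

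Both single comparisons listed the identical tile in 30 of the 269 cases. These were 15.6% of the DMRs of guidance genes in the shRNA comparison (16.3% over all listed tiles) and 28.8% in the knockout comparison (29.5%). The direction was the same in 20 (66.7%; 95% Wilson interval 48.8 to 80.8%). Over all 8345 tiles listed in both, it was the same in 52.6%, which lies inside that interval. Since Ly75-OV-S was made from LY75 knockdown cells, the comparisons are not independent, and how far this set the directions was not tested. By group, the same direction was found in 2 of 4 tiles of Eph receptors, 2 of 4 of ephrins, 8 of 12 of Slit and Robo genes and 8 of 10 of netrins and receptors. With the opposite reading of the knockout signs, which would turn their fitted weight in the mix negative, the share would be 33.3%. Only 2 of the 30 tiles lay near a TSS, those upstream of ROBO3 and NTNG2 described above, and both were hypermethylated.

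**Figure D5:**
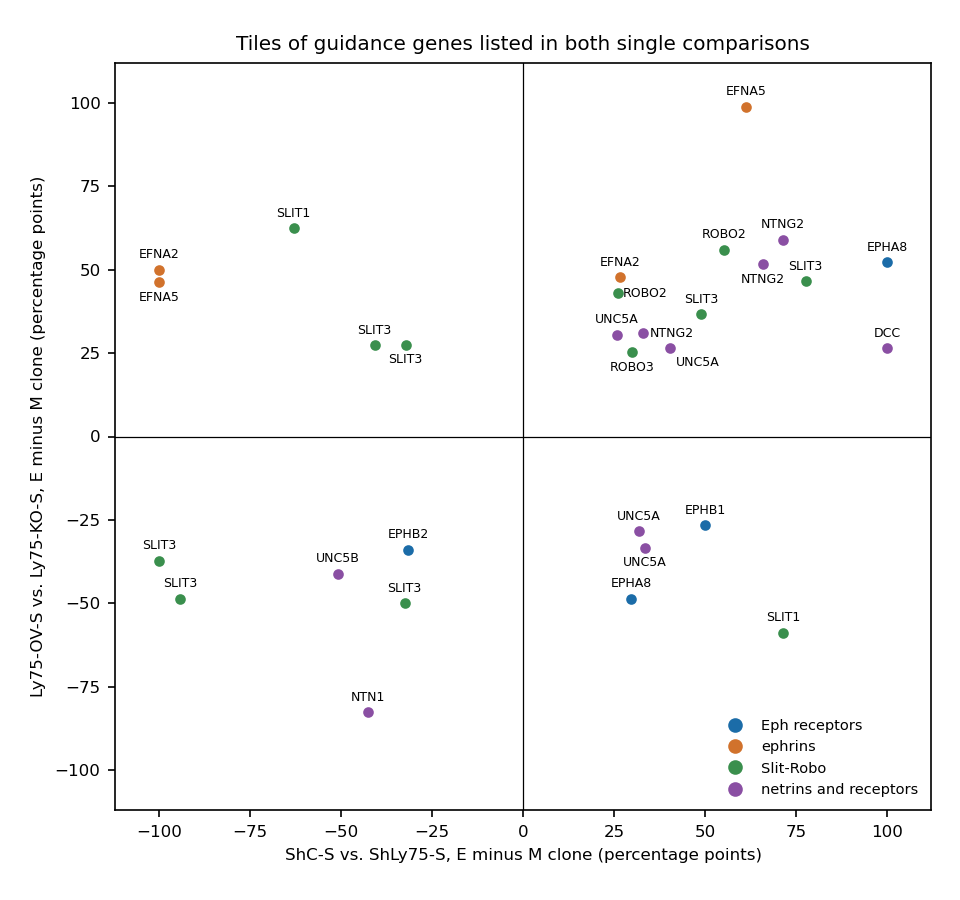
The 30 tiles of guidance genes listed in both single comparisons, with the difference in the shRNA comparison on the horizontal and that in the knockout comparison on the vertical axis, both in percentage points (E minus M clone); colours give the gene group. The 20 tiles of the same direction lie at upper right and lower left, and the 10 tiles of opposite direction at upper left and lower right.

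Every table listed 16 of the tiles. The mix lay outside the range of the single comparisons in 5 of the 16 (31.2%), against 913 of 4250 tiles (21.5%) overall. Among these were the SLIT3 tile at 168188001, the ROBO2 tile at 77346001, the upstream ROBO3 tile and the NTNG2 tile at 135051001. How the authors combined the libraries of the mix is not given in the sources used here.

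Most DMRs of guidance genes lay in the gene body. In the shRNA comparison 133 of 192 (69.3%) were intronic, 36 (18.8%) overlapped a coding exon and 26 (13.5%) lay near a TSS, a class that overlaps the others. The direction varied with CpG number: in tiles with under 15 CpGs 28 of 65 (43.1%) were hypermethylated in the shRNA comparison, in tiles with 15 to 29 CpGs 44 of 80 (55.0%), and in tiles with 30 or more 31 of 47 (66.0%). Over all listed tiles these shares were 58.3%, 69.7% and 64.7%. In the knockout comparison the guidance genes had 48.6%, 48.9% and 65.0%, against 54.6%, 54.9% and 54.4%.

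The other genes of these pathways were counted in a list of 42 partners, which holds adaptors such as NCK1, exchange factors such as TIAM1, Slit-Robo GTPase activators and further ligands. A DMR was present in 34 of them in the shRNA comparison, in 31 in the knockout comparison and in 29 in the mix. These were 81.0%, 73.8% and 69.0% of the list, against 60.3%, 46.8% and 38.3% of protein-coding genes. A longer gene offers more tiles, and neither length nor the share per reachable tile is given for the partners. Hypermethylated were 59.2%, 63.5% and 65.1% of their DMRs, against 64.7%, 54.7% and 65.0% of all listed tiles. The largest differences near a TSS in the shRNA comparison were -100 points for DOCK1, an activator of Rac, 100 points for DAPK1, a kinase that acts in cell death with UNC5B, and 98.8 points for PAK1, an effector of Rac. In the knockout comparison they were -100 points for EFNB1, an ephrin of the B class, -100 points for NGEF, the exchange factor ephexin, and 61.4 points for VAV2, another exchange factor.

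The targeted gene LY75 was listed as well. At the tile over its TSS (chr2:160761001-160762000, 62 CpGs) the shRNA comparison gave 87.7 points and the mix 42.9 points, and the tile next to it, inside the gene, gave 70.5 and 30.7 points. The knockout comparison listed no LY75 tile near a TSS, only -100 points in an intronic tile without a CpG within reach of a read in the in silico digest. These values concern methylation and do not check the loss of LY75 RNA or protein.

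Some DMRs depended on the 5 kb extension. Without it the shRNA and knockout comparisons held 174 and 93 DMRs of guidance genes, and with 10 kb 201 and 117, against 192 and 104 as reported. Inside the 5 kb edge lay, for example, a tile 4445 bp from NTNG2, with 50.0 points, and one 3982 bp from EPHA8, with -26.4 points, both in the shRNA comparison. Just outside lay a tile 5052 bp from EPHA1, with 29.2 points, and one 5437 bp from EPHA2, with -29.7 points, both in the knockout comparison.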

How the data were processed

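RRBS was made on 4 SKOV3 clones with 1 library each, and samples were grouped by clone from the labels. Per the labels, the authors used Trim Galore 0.4.1, FastQC, Bismark 0.16.1 and methylKit on hg19; the protocol text also names Trimmomatic. The authors' deposited tables hold, for tiles of 1000 bp, a signed methylation difference in percentage points (treated as a score) and the p-value and q-value of that difference. These are the authors' own comparisons and the tables hold nothing else, so the differences were used as deposited and no test was made on them. The coverage minimum is not given in the sources used here, depth per library is unknown, and no molecular identifiers are described, so that PCR copies may count as reads.

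Gene spans came from GENCODE release 44 lifted to GRCh37, and tiles were taken by overlap with the span extended by 5 kb, and were called near a TSS within 2 kb of any TSS of a basic transcript. An in silico MspI digest of the reference gave CpG numbers and the tiles within reach of 50 bp reads (fragments of 40 to 220 bp). Shares carry 95% Wilson intervals. The members and lists were chosen with earlier results of these data known. Every gene was accounted for, and the following were described by tile: genes with a DMR of 50 points or more near a TSS, genes with a tile in both single comparisons, and the gene with the most tiles of each group. Of the partner list, the 3 genes with the largest difference near a TSS in each single comparison were named. One tile of SLIT3 is counted but not reported by itself here. Alternatives were the extension, the overlap, the difference, the q-value, the TSS rule, the fragment size, the sign of the knockout table, and, added after the data were seen, a minimum of 10 CpGs per tile. Scripts were tested on simulated data and used Python 3.11.15, numpy 2.4.6, pandas 2.3.3 and matplotlib 3.10.9.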

Additional observations from a re-analysis of the deposited data

Results flagged for a closer look

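In 10 tiles of guidance genes the single comparisons went in opposite directions. The gap between them, shRNA comparison minus knockout comparison, is given below in percentage points. With 1 library per clone, none of these differences was tested, and Ly75-OV-S was itself made from LY75 knockdown cells. With the opposite reading of the knockout signs, each of these tiles would have the same direction in both. That reading would turn the fitted weight of the knockout comparison in the mix, 0.435, negative.

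Among Eph receptors, the gap was 78.1 points for the exonic EPHA8 tile at 22927001 on chromosome 1 and 76.6 points for the intronic EPHB1 tile at 134724001 on chromosome 3, which had 50.0 and -26.6 points and no CpG within reach of a read in the in silico digest. The widest gaps were in ephrins, -150 points for the tile upstream of EFNA2 at 1281001 and -146 points for the EFNA5 tile at 106752001. In both, ShC-S and ShLy75-S differed by the full -100 points, and the mix gave -26.7 and -26.9 points.

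SLIT1 had gaps of 130 points at 98857001 and of -125 points at 98929001, so that its own tiles were opposite in opposite ways. The tile at 98857001 likewise held no CpG within reach of a read. For SLIT3 the gaps were -68.1 points at 168451001 and -59.9 points at 168514001. UNC5A had 66.7 points at 176250001 and 60.1 points at 176287001. No netrin ligand had such a tile.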

How the results depend on the processing

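Of 99 values recomputed under an alternative, 75 stayed within the limits set here and 24 moved past them. A count stayed when it was within 1.5 times the reported one, and a share when it lay inside the 95% Wilson interval of the reported one. Within these limits, genes with a DMR still fell from 35 to 24 in the shRNA comparison at 70 points and from 33 to 22 in the knockout comparison at 50 points. The threshold on the difference moved most. At 50 points or more, the DMRs were 103 in the shRNA comparison, 44 in the knockout comparison and 22 in the mix, 8 tiles were in both single comparisons, the mix had DMRs in 15 genes, and genes with a DMR near a TSS numbered 12, 4 and 2. At 70 points or more, the DMRs were 56, 17 and 3, no tile (0) was in both, 13 genes had a DMR in the knockout comparison and 3 in the mix, genes with a DMR near a TSS numbered 6, 2 and 0, and the hypermethylated share of the knockout comparison was 35.3%. With q of 1e-10 or less, the knockout comparison kept 69 DMRs and 12 tiles were in both, 83.3% of them with the same direction (for that share, chosen after seeing the data). With the signs of the knockout table reversed, the same-direction share was 33.3% and the hypermethylated share of the knockout comparison 48.1%. With fragments of 40 to 400 bp, 12.5% and 6.60% of the reachable tiles were listed in the single comparisons. A minimum of 10 CpGs per tile, chosen after seeing the data, moved no value past these limits. No paired analysis was possible because each clone has 1 library and the labels give no replicate numbers. The unknown depth limits each single difference.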
